A study of Arabidopsis thaliana with 12 samples.

Results

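Basal stems of Arabidopsis plants that overexpress C3H15 were compared with basal stems of wild-type plants. C3H15 is a gene of the tandem CCCH zinc finger family. The comparison uses the 3 arrays whose titles name C3H15 overexpressing plants and the 3 arrays titled wild type, 6 of the 12 arrays of the series, and all 22746 probe sets that are not controls. The groups are written here as C3H15-OE and WT (ecotype Col-0). The other 6 arrays are C3H14-OE, plants that overexpress the related gene C3H14 (3 arrays), and c3h14c3h15, the double mutant (3 arrays). All 4 groups share the Col-0 background. Plants grew side by side in the glasshouse, at 22 °C with days of 16 h light and 8 h dark, and RNA came from the lowest 4 cm of stems that were 12 to 17 cm tall. The labels name neither the promoter that drives each transgene nor the alleles of the double mutant. Sample titles speak of biological replicates, but do not settle whether the overexpressor arrays are separate transgenic lines or plants of 1 line, so a p-value here reflects only how far these arrays spread.

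Tandem CCCH zinc finger proteins bind nucleic acids, and members of the family are known to act on RNA as well as to enter the nucleus. In the inflorescence stem, xylem vessels and interfascicular fibres lay down a secondary wall of cellulose, xylan and lignin once the cell has stopped growing. Cortical microtubules, built of alpha and beta tubulin, steer where cellulose is laid down. Xylan is made in the Golgi apparatus by glycosyltransferases and is then decorated with acetyl and methylglucuronic acid side groups. Growth before that stage depends on enzymes that cut and rejoin xyloglucan and on proteins that report the state of the wall.

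Every value below is a log2 intensity of a probe set, in which a difference of 1 is a factor of 2, and every fold change is a difference of group means on that scale with its standard error (SE). An adjusted p is from limma, a linear model fitted to all 12 arrays, after Benjamini-Hochberg adjustment over the 22746 probe sets, and a gene is said to have risen or fallen where it is under 0.05. Levels of different probe sets are not set against each other. In a stem, fewer cells of a type and less RNA per cell cannot be told apart.

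The 12 arrays correlated with each other at 0.953 to 0.995, and their log2 medians lay between 5.65 and 5.84. On the first principal component, with 44.5% of the variance, C3H15-OE lay at 48.1, 41.6 and 27.6 and WT at -24.2, -5.2 and -31.3. The C3H14-OE arrays scored 14.6, 8.1 and 40.8, so that 1 of them lay among the C3H15-OE arrays and the others between C3H15-OE and WT. The double mutant arrays scored -18.5, -57.1 and -44.7. No probe set is named for C3H15 (AT1G68200) here, so the level of the overexpressed gene was not analysed and the labels could not be checked by it. The probe set of C3H14 (AT1G66810) read 7.01, 6.12 and 7.43 in WT and 8.43, 9.10 and 7.07 in C3H14-OE. The difference of 1.34 ± 0.45 (SE) between C3H14-OE and WT missed the threshold (adjusted p = 0.258). C3H14-OE replicate 3, the array that scored 40.8 above, lay within the WT readings. In C3H15-OE the same probe set read 5.18, 5.39 and 5.99, all below WT, as for 16.9% of all probe sets. Its difference from WT of -1.34 ± 0.45 (SE) missed the threshold (adjusted p = 0.0993).

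**Figure D1:**
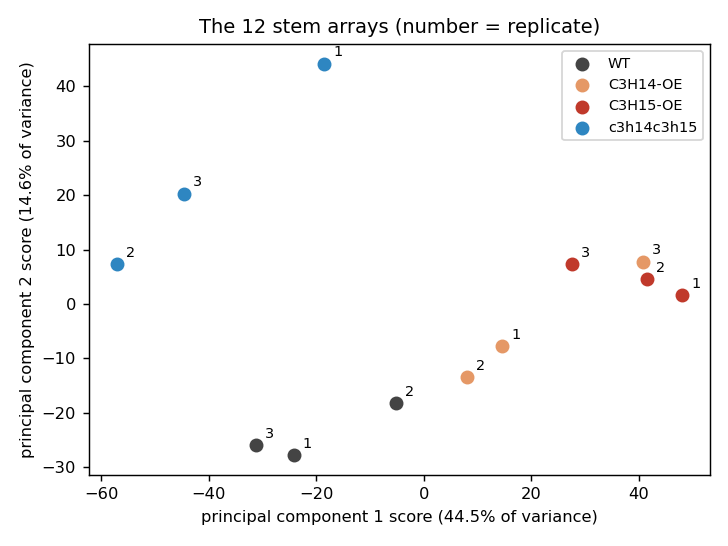
Scores of the 12 arrays on the first 2 principal components of the log2 values of 22746 probe sets, coloured by group and numbered by replicate. The 3 C3H15-OE arrays (27.6 to 48.1) and the 3 WT arrays (-31.3 to -5.2) lie apart on component 1, which holds 44.5% of the variance, and the lowest scores are those of 2 double mutant arrays (-57.1 and -44.7).

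Of the 22746 probe sets, 702 rose and 811 fell in C3H15-OE against WT, which is 6.65% of those tested (3.09% rose and 3.57% fell). Without adjustment, 5588 probe sets had a p under 0.05. The median rise was 0.87 and the median fall -0.90, while the median difference of all probe sets was -0.03. More than 2-fold differences were called for 273 probe sets that rose and 345 that fell, and more than 4-fold differences for 47 and 60. The fallen probe sets were bright in WT, with a median log2 intensity of 7.50 against 5.76 over all probe sets, and the risen ones stood at 6.02. Of the brightest 5687 probe sets 7.31% fell and 2.90% rose, while of the 5686 just below the median brightness 2.36% fell and 4.24% rose. On the 5 nuclear chromosomes between 4.82% and 6.45% of the probe sets with 1 gene were called, while limma called none of the 69 probe sets of the chloroplast genome (7 had an unadjusted p under 0.05).

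**Figure D2:**
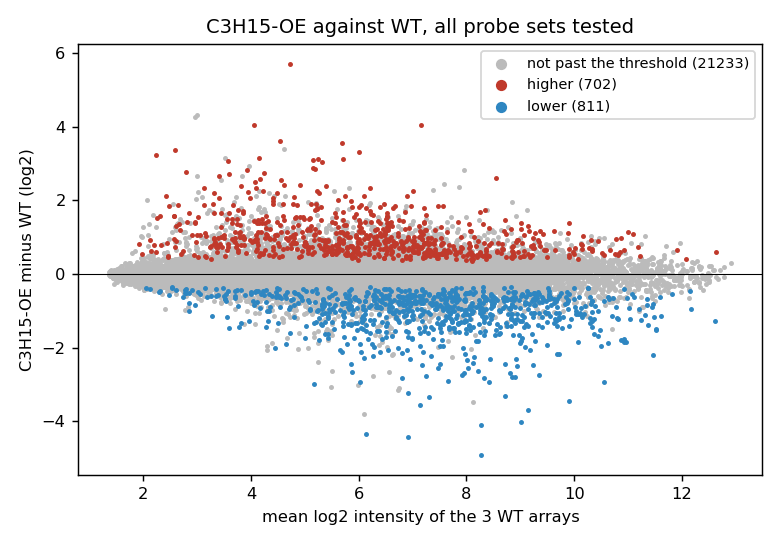
Mean log2 intensity of the 3 WT arrays (x axis) against the difference between C3H15-OE and WT in log2 units (y axis), 1 point for each of 22746 probe sets. The 811 probe sets that fell (blue) lie further to the bright side than the 702 that rose (red).

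The number of calls rested on 4 of the arrays. Without WT replicate 1 the fit called 121 rises and 102 falls, and without WT replicate 3 it called 191 and 211. Without C3H15-OE replicate 1 the counts were 167 and 138, and without C3H15-OE replicate 2 they were 185 and 154. In all 12 fits that leave out 1 array, 96 rises and 90 falls passed the threshold with the same direction. These calls are described below as held in all 12 fits, and for other genes the number of such fits that kept the call is given, the losses being mostly without those 4 arrays. Only 6 of the 12 fits leave out a C3H15-OE or WT array. The others leave the difference from WT as it was and change only its estimated spread. A call lost without all 4 of those arrays is thus lost in most fits that change the compared groups. Of the calls, 332 rises and 417 falls belong to probe sets that are annotated with exactly 1 gene (5.54% of 13513, with 2.46% risen and 3.09% fallen), and 53 and 67 to genes that carry a symbol (7.59% of 1580, with 3.35% risen and 4.24% fallen). Only probe sets with 1 gene are named. Genes known only by a locus number are given with their values and no role. Counts of family members that were called, or that had means below WT, describe those members and are no test of the family. The share of all probe sets with a mean below WT is not given here. Over all probe sets the median difference was -0.03. Of all probe sets 3.09% rose and 3.57% fell, with falls more often among bright ones.

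Some genes of the microtubule and actin cytoskeleton were among the falls. Of 7 tubulin probe sets, 4 fell, none rose, and all 7 had a mean below WT, with a median difference of -0.88 against -0.03 over all probe sets. TUB6 (AT5G12250), a beta tubulin, read 11.22, 11.11 and 11.31 in WT and 10.06, 10.13 and 10.54 in C3H15-OE. The fall of 0.97 ± 0.14 in TUB6 (adjusted p = 0.00569) was held in all 12 fits. TUB5 (AT1G20010) read 9.52, 9.68 and 9.76 in WT and 8.00, 8.66 and 8.64 in C3H15-OE, a difference of -1.22 ± 0.26 (adjusted p = 0.0233). All 3 overexpressor arrays were below all 3 WT arrays for both genes, as for 16.9% of all probe sets. Among the 1513 called probe sets only 3 had overlapping arrays, so this adds nothing to the calls. TUB1 (AT1G75780), a dimmer beta tubulin probe set, read 6.15, 4.71 and 6.73 in WT and 3.22, 3.47 and 3.52 in C3H15-OE, a difference of -2.46 ± 0.56 (adjusted p = 0.0281). WT replicate 2 was the lowest WT array here, yet still above every C3H15-OE array. The alpha tubulin TUA6 (AT4G14960) fell by 0.88 ± 0.21 (adjusted p = 0.0347). The calls of TUB1 and TUB5 were kept in 8 of the 12 fits and that of TUA6 in 7, with adjusted p-values of up to 0.108, 0.0931 and 0.135; all 3 were lost without WT replicate 1 or 3 and without C3H15-OE replicate 1 or 2, and TUA6 also without C3H14-OE replicate 1. TUB7, TUB9 and TUA1 had differences of -0.38, -0.26 and -0.13 and missed the threshold. Tubulin genes are near-identical in sequence, so signal from one member can enter the probe set of another.

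Proteins that act on microtubules were among the falls as well. Of the 4 SPIRAL1-like genes, small microtubule-associated proteins that affect the direction of cell growth, 3 fell and all 4 had means below WT (median -0.70). This family was added after its values were seen, so these counts are not independent of that choice. SP1L5 read 8.27, 8.08 and 8.37 in WT and 6.22, 6.82 and 7.59 in C3H15-OE, and fell by 1.36 ± 0.28 (adjusted p = 0.0184). SP1L2 fell by 0.80 and SP1L3 by 0.47. Of 15 IQ-domain genes, whose proteins bind calmodulin and link it to microtubules, 3 fell and 14 had means below WT (median -0.39). The gene iqd21 (AT3G49260) read 7.08, 6.70 and 6.89 in WT and 5.61, 5.19 and 5.97 in C3H15-OE, and its fall of 1.30 ± 0.20 (adjusted p = 0.00709) was held in all 12 fits. IQD28 fell by 0.67 and iqd15 by 0.46. Of 15 TRM genes, named for the motif that recruits the TON1 proteins of the cortical microtubule array, 2 fell and 11 had means below WT (median -0.19). TRM28 (AT5G03670) had tight groups, at 6.11, 6.01 and 6.12 in WT and 4.42, 4.70 and 4.64 in C3H15-OE. Its fall of 1.49 ± 0.17 (adjusted p = 0.00347) was held in all 12 fits. TRM26 fell by 0.41 (adjusted p = 0.0489), a call kept in 2 of the 12 fits.

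Some single genes of the same machinery are given next; they were picked because they had fallen, so their direction was fixed by that choice. TON1B, a protein needed to place the cortical microtubule array, fell by 0.59 ± 0.12 (adjusted p = 0.0183). POR, the tubulin-folding cofactor C, fell by 0.53 ± 0.11 (adjusted p = 0.0233). KINESIN-13A, a microtubule motor, fell by 0.74 ± 0.18 (adjusted p = 0.0378), and AT3G23090, whose synonym WDL3 marks it as a relative of the microtubule-binding WAVE-DAMPENED2, fell by 1.47 (adjusted p = 0.00955). Of the 2 actin genes with a probe set, ACT11 (AT3G12110) read 6.56, 5.82 and 6.83 in WT and 3.79, 4.33 and 4.69 in C3H15-OE. Its fall of 2.13 ± 0.31 (adjusted p = 0.00613) was held in all 12 fits, while the dim ACT12 differed by -0.19. Of 5 genes with LIM domains, whose plant members bundle actin filaments, 3 fell and all 5 had means below WT (median -0.50). The kinesin, actin and LIM families were added after their values were seen. WLIM2a fell by 1.01 ± 0.20 (adjusted p = 0.0168), WLIM1 by 0.64 and the dim PLIM2a by 0.50. The calls of TON1B, POR, WLIM2a, SP1L5 and SP1L2 were kept in 8 of the 12 fits, that of IQD28 in 9, those of SP1L3 and WLIM1 in 7, that of PLIM2a in 6, that of iqd15 in 5 and that of KINESIN-13A in 4. The highest adjusted p among these genes was 0.159, for iqd15.

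Genes for the xylan of secondary walls were among the falls. Of 24 listed xylan genes 5 had a probe set with 1 gene, 3 of the 5 fell, and all 5 had means below WT (median -0.91). IRX15 (AT3G50220), one of a pair of related genes that xylan of normal length requires, read 8.39, 8.41 and 8.19 in WT and 7.18, 6.52 and 7.77 in C3H15-OE. The difference was -1.17 ± 0.24 (adjusted p = 0.0205). Its partner IRX15-L (AT5G67210) read 8.70, 8.84 and 9.14 in WT and 7.48, 7.15 and 8.28 in C3H15-OE, a difference of -1.26 ± 0.26 (adjusted p = 0.0204). C3H15-OE replicate 2 was the lowest array and C3H15-OE replicate 3 the highest of its group for both. Neither gene's groups overlapped, as for nearly all called probe sets. GUT2 (AT1G27440), also known as IRX10 and required for the xylan backbone, fell by 0.91 ± 0.23 (adjusted p = 0.0394), while its close relative GUT1 differed by -0.07. The calls of IRX15 and IRX15-L were kept in 8 of the 12 fits (adjusted p up to 0.0825 and 0.0832), and were lost without WT replicate 1 or 3 and without C3H15-OE replicate 1 or 2. The call of GUT2 was kept in 5, with an adjusted p of up to 0.126, and was also lost without C3H14-OE replicate 1 or 2 or c3h14c3h15 replicate 3.

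The trichome birefringence-like (TBL) family holds acetyltransferases of wall polysaccharides. Of its 24 probe sets, 4 fell, 1 rose and 21 had means below WT (median -0.26). TBL25 (AT1G01430) read 8.34, 8.17 and 8.43 in WT and 7.44, 7.50 and 7.64 in C3H15-OE, and its fall of 0.78 ± 0.13 (adjusted p = 0.00826) was held in all 12 fits. AT2G31110, whose synonym is TBL40, fell by 1.29 (adjusted p = 0.00811) on one probe set and by 1.12 (adjusted p = 0.0158) on another. The brighter probe set of AT2G31110 read 8.79, 8.67 and 9.20 in WT and 7.74, 7.43 and 7.63 in C3H15-OE, and its call was held in all 12 fits. TBL41 fell by 0.63 (adjusted p = 0.0303, kept in 8 fits). TBL38 was the member that rose, by 0.56 ± 0.15 (adjusted p = 0.0496), a call kept in 4 of the 12 fits.

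Other secondary wall groups could be read only in small part. Of 22 listed lignin genes 3 had a probe set and none passed the threshold in limma, nor had an unadjusted p under 0.05. HCT, an enzyme of the monolignol pathway and the bright member, read 10.18, 10.38 and 10.15 in WT and 10.35, 10.25 and 10.69 in C3H15-OE, so its groups overlapped (difference 0.19 ± 0.15). The dim peroxidases AT5G66390 and PRX52 differed by -0.20 and 1.13 (adjusted p = 0.211 and 0.273). LAC16, the 1 laccase with a probe set, differed by -0.10. No 1-gene probe set was found for any of the 8 listed genes of secondary wall cellulose and matrix, the 25 listed regulators of secondary walls, or the 5 genes of programmed death in tracheary elements, and these were not analysed here. The xylem and fibre marker list rested on IRX15 and IRX15-L alone, 2 of its 9 genes. Its summed linear signal ran from 750 to 859 in WT and from 234 to 530 in C3H15-OE.

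**Figure D3:**
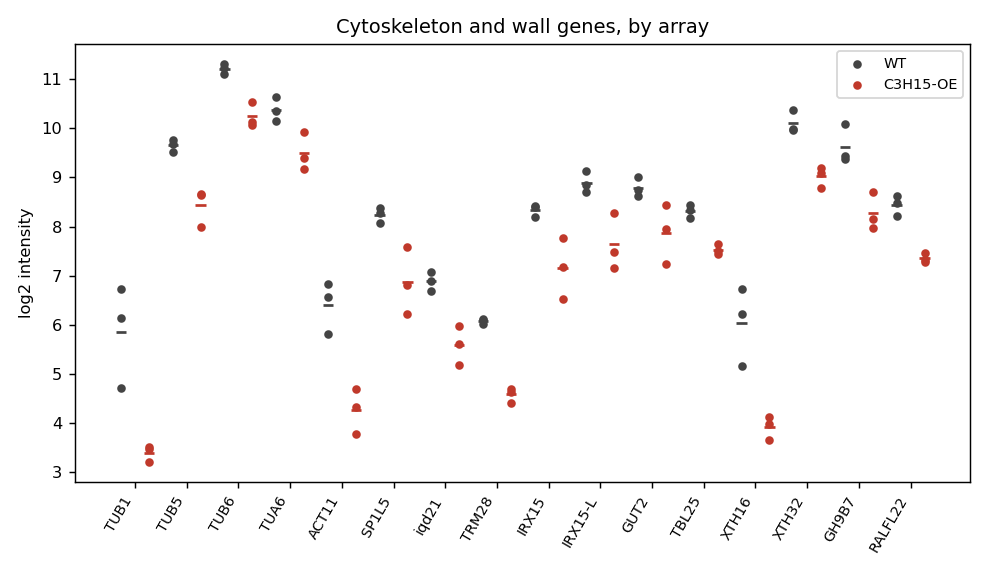
Log2 intensity of 16 cytoskeleton and wall genes in each of the 3 WT arrays (grey) and the 3 C3H15-OE arrays (red), with the group mean as a bar. The genes were chosen among the falls, and the distance between the group means runs from 0.78 for TBL25 to 2.46 for TUB1.

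Several genes for the loosening and sensing of the primary wall fell. All 10 genes of the XTH family, which cut and rejoin xyloglucan, had means below WT, and 2 of the 10 fell (median -0.28). XTH16 (AT3G23730) read 6.22, 5.17 and 6.74 in WT and 3.67, 3.98 and 4.13 in C3H15-OE, a difference of -2.12 ± 0.44 (adjusted p = 0.0202). XTH32 (AT2G36870) was bright, at 9.98, 9.96 and 10.38 in WT, and fell to 8.78, 9.19 and 9.10, a difference of -1.08 ± 0.20 (adjusted p = 0.0133). XTH33 differed by -1.80 and missed the threshold (adjusted p = 0.0762). XTH16 kept its call in 8 of the 12 fits (adjusted p up to 0.0836), being lost without WT replicate 1 or 3 and without C3H15-OE replicate 1 or 2. XTH32 kept its call in 10 fits and lost it without WT replicate 3 or C3H15-OE replicate 1 (adjusted p up to 0.0591). Of 19 expansins, proteins that loosen the wall at acid pH, 15 had means below WT, none fell, and EXPB3 rose by 1.06 ± 0.28 (adjusted p = 0.0451, kept in 3 fits). GH9B7 (AT1G75680), an endoglucanase, read 9.43, 9.37 and 10.08 in WT and 8.15, 7.98 and 8.70 in C3H15-OE. Its fall of 1.34 ± 0.23 (adjusted p = 0.0107) was held in all 12 fits, and it was the 1 member of 15 in its family to pass. Of 4 pectin methylesterase genes matched by name PME61 rose by 0.77 ± 0.16 (adjusted p = 0.0211, kept in 9 fits). ATPMEPCRD, a pectin methylesterase gene named after its values were seen, fell by 1.59 ± 0.36 (adjusted p = 0.0279, kept in 7 fits).

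Wall signalling genes were also among the falls. Of 11 genes for RALF-like peptides, small secreted signals that make the wall space more alkaline, 2 fell and 10 had means below WT (median -0.22). RALFL22 read 8.49, 8.21 and 8.63 in WT and 7.33, 7.29 and 7.46 in C3H15-OE, and its fall of 1.08 ± 0.18 (adjusted p = 0.00972) was held in all 12 fits. RALFL24 fell by 1.21 ± 0.23 (adjusted p = 0.0148, kept in 8 fits). THE1 (THESEUS1, AT5G54380), a receptor kinase that monitors wall integrity and was named after its values were seen, read 7.51, 7.00 and 7.45 in WT and 5.82, 6.27 and 6.60 in C3H15-OE. It fell by 1.09 ± 0.25 (adjusted p = 0.0279, kept in 8 fits). SKU5 (AT4G12420), a membrane-anchored protein of directional growth, fell by 1.35 ± 0.33 (adjusted p = 0.0372, kept in 6 fits). Its family was also added after its values were seen. COB, the COBRA protein that helps orient cellulose, read 9.90, 9.79 and 10.23 in WT and 9.19, 9.35 and 9.52 in C3H15-OE. Its arrays did not overlap, as for 16.9% of all probe sets in that direction, and its difference of -0.62 ± 0.18 missed the threshold (adjusted p = 0.0616). None of the 8 cellulose synthase-like genes passed in limma (2 had an unadjusted p under 0.05), the nearest being CSLA03 at -1.58 (adjusted p = 0.0522).

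The genes with the largest falls were mostly known by locus number alone. AT5G22580 read 9.34, 7.78 and 10.32 in WT and 4.91, 5.24 and 6.23 in C3H15-OE, a difference of -3.69 ± 0.71 (adjusted p = 0.0158), or 12.9-fold. AT4G23820 fell by 2.94 ± 0.54 (adjusted p = 0.0133) and AT2G05540 by 2.74 ± 0.41 (adjusted p = 0.00658). The falls with the smallest p were AT1G50040 and AT2G42770. AT1G50040 read 7.50, 7.31 and 7.59 in WT and 4.68, 5.01 and 5.05 in C3H15-OE, a difference of -2.55 ± 0.20 (adjusted p = 0.000466). AT2G42770 read 6.45, 6.54 and 6.53 in WT and 5.32, 5.32 and 5.34 in C3H15-OE, a difference of -1.18 ± 0.09 with the same adjusted p. Both kept their calls in all 12 fits, with adjusted p-values of at most 0.00502 and 0.00442. AT2G05540, AT2G19970 (-2.69), AT4G30670 (-1.74) and AT5G05890 (-1.72) were also held in all 12 fits, while AT5G22580 was kept in 8 and AT4G23820 in 9. The other large falls by locus number were AT1G13670 (-2.70), AT1G31710 (-2.42), AT2G14900 (-2.32), AT5G57785 (-2.27), AT2G45180 (-2.21), AT4G37220 (-2.14) and AT4G37240 (-2.13). These 7 kept their calls in 5 to 11 of the 12 fits.

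Genes tied to defence against pathogens were among the rises. CHI (AT2G43570), annotated as a chitinase, an enzyme that breaks down the chitin of fungal walls, read 5.95, 5.85 and 5.27 in WT and 9.83, 9.80 and 8.08 in C3H15-OE. The difference was 3.55 ± 0.93, or 11.7-fold (adjusted p = 0.0432), and its call was kept in 5 of the 12 fits (adjusted p up to 0.150). WRKY53 (AT4G23810), a transcription factor of leaf senescence and immunity, read 5.94, 5.78 and 5.11 in WT and 8.12, 7.41 and 7.30 in C3H15-OE. Its rise of 2.0 ± 0.34 (adjusted p = 0.0103) was held in all 12 fits. WRKY53 was 1 of 2 measured genes of 26 listed for salicylic acid defence, the other being SAG101, which differed by 0.43 (adjusted p = 0.0577). Of 7 WRKY genes 2 rose, the other being ZAP1, by 0.42 (adjusted p = 0.0476, kept in 2 fits). RING1 (AT5G10380), a RING-finger ubiquitin ligase of programmed cell death, read 9.90, 9.85 and 9.92 in WT and 11.43, 11.08 and 10.49 in C3H15-OE. Its rise of 1.11 ± 0.18 (adjusted p = 0.00895) was held in all 12 fits, and the WT arrays differed by far less than the C3H15-OE arrays. RING1 was named after its values were seen.

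In further defence-related families some members rose and none fell. Each family given here held at least 1 rise. Of 7 glutamate receptor-like genes, ion channels of wound and immune signalling, GLR2.7 and GLR2.8 rose. GLR2.8 (AT2G29110) was dim, at 2.62, 2.63 and 2.43 in WT against 3.64, 3.69 and 3.23 in C3H15-OE, and its rise of 0.96 ± 0.12 (adjusted p = 0.00397) was held in all 12 fits. GLR2.7 rose by 1.25 ± 0.31 (adjusted p = 0.0346, kept in 7 fits). Of 4 jacalin lectins, sugar-binding proteins, JAL23 rose by 1.65 ± 0.31 (adjusted p = 0.0140, kept in 9 fits) and JAL34 by 1.05 (adjusted p = 0.0439, kept in 4 fits). Of 9 subtilases, proteases of the wall space, SBT3.3 (AT1G32960), which is linked to immune priming, read 3.81, 3.61 and 3.50 in WT and 5.06, 5.16 and 5.18 in C3H15-OE. It rose by 1.49 ± 0.27 (adjusted p = 0.0130, kept in 11 fits), and ATSBT5.2 rose by 1.38 (adjusted p = 0.0406, kept in 4 fits). AT2G41480, with the synonym PRX25, rose by 2.55 ± 0.51 (adjusted p = 0.0176, kept in 8 fits), the 1 of 6 class III peroxidases to pass. Medians were 0.25 for the glutamate receptor-like genes, 0.48 for the jacalin lectins, -0.01 for the subtilases and 0.93 for the peroxidases. In the same order 2, 2, 5 and 2 members had means below WT. Over all probe sets 3.09% rose and 3.57% fell.

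Of the 7 measured defensin, thionin and osmotin genes 4 had means above WT and 3 below, and PDF1.2, PDF1.2b and OSM34 had large differences with a wide spread. PDF1.2 (AT5G44420), a defensin, read 3.19, 2.60 and 3.11 in WT and 11.13, 6.83 and 3.73 in C3H15-OE. All 3 overexpressor arrays were above WT, as for 12.7% of all probe sets, but C3H15-OE replicate 1 stood far above C3H15-OE replicate 3. The difference of 4.27 ± 1.75 missed the threshold (adjusted p = 0.161). OSM34, an osmotin-like protein, had the same order, at 8.35, 5.34 and 3.26 against 2.92 to 3.13 in WT (adjusted p = 0.198). PDF1.2b and THI2.1 differed by 2.37 and 0.94 (adjusted p = 0.146 and 0.0712), and THI2.2 by -0.22 (adjusted p = 0.450). Signal from related defensins can enter the PDF1.2b probe set. The jasmonate list had a probe set for 2 of its 15 genes, PDF1.2 and THI2.1. None of the 7 genes of the defensin, thionin and osmotin family passed in limma, although 4 had an unadjusted p under 0.05, and of 8 calmodulin-like genes 1 had such a p and none passed.

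Some of the largest rises belonged to genes without a symbol. AT5G55450 read 5.51, 4.77 and 5.48 in WT and 8.99, 9.12 and 6.99 in C3H15-OE, a difference of 3.12 ± 0.57 (adjusted p = 0.0133, kept in 9 fits). AT5G39670 rose by 3.10 ± 0.44 (adjusted p = 0.00569), AT5G52760 by 2.89 ± 0.35 (adjusted p = 0.00347) and AT4G00700 by 2.58 ± 0.29 (adjusted p = 0.00347). The rise with the smallest adjusted p was AT4G32870, at 6.12, 5.87 and 6.10 in WT and 7.19, 7.42 and 7.62 in C3H15-OE, a difference of 1.38 ± 0.12 (adjusted p = 0.000744). These 4 genes were held in all 12 fits, as were AT1G06620 (2.41), AT1G23850 (2.12), AT3G60420 (2.12), AT3G47540 (1.72) and AT1G53980 (1.49). AT3G13950 (2.50), AT2G41640 (2.38) and AT1G67920 (2.25) kept their calls in 8, 8 and 7 fits.

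Enzymes that attach sugars to small molecules or remove them were called in both directions. Of 45 UDP-glycosyltransferases matched by name 4 rose and none fell, with a family median of -0.05. UGT87A2 (AT2G30140), which is known to affect flowering time, read 6.79, 6.76 and 6.36 in WT and 9.01, 8.60 and 7.73 in C3H15-OE, a difference of 1.81 ± 0.34 (adjusted p = 0.0145, kept in 8 fits). UGT71B1 (AT3G21750) read 5.20, 4.73 and 5.39 in WT and 6.23, 6.47 and 6.53 in C3H15-OE, and its rise of 1.30 ± 0.18 (adjusted p = 0.00567) was held in all 12 fits. UGT72E1, an enzyme that glucosylates monolignol aldehydes, rose by 1.21 (adjusted p = 0.0208, kept in 8 fits) and UGT71B6, which glucosylates abscisic acid, by 1.06 (adjusted p = 0.0469, kept in 5 fits). Outside the family pattern, UGT84A3 rose by 1.07 (adjusted p = 0.0340) and UGT72E3 fell by 0.39 (adjusted p = 0.0406), kept in 7 and 4 fits. Both were named after their values were seen. Of 20 beta-glucosidases, BGLU31 rose by 1.52 (adjusted p = 0.0161, kept in 8 fits) and BGLU40 by 1.21 (adjusted p = 0.0118, kept in 11), and the dim BGLU41 fell by 0.72 (adjusted p = 0.0146, kept in 9). Over all probe sets 3.09% rose and 3.57% fell.

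Redox and sulphur metabolism gave 2 rises that no single array decided. MSRB9 (AT4G21850), a methionine sulfoxide reductase that repairs oxidised methionine, read 3.52, 3.76 and 2.91 in WT and 6.45, 6.16 and 5.59 in C3H15-OE. Its rise of 2.67 ± 0.25, or 6.36-fold (adjusted p = 0.000877), was held in all 12 fits, and it was the 1 of 5 genes of its family to pass. OASA2, of the family that makes cysteine, read 6.41, 6.67 and 6.37 in WT and 7.76, 7.46 and 7.66 in C3H15-OE, and its rise of 1.15 ± 0.18 (adjusted p = 0.00709) was held in all 12 fits. ATMDAR2, a monodehydroascorbate reductase, rose by 0.80 (adjusted p = 0.0477, kept in 4 fits), and GRXC2, a glutaredoxin, by 0.54 (adjusted p = 0.0459, kept in 4 fits). Of 12 glutathione S-transferases, detoxifying enzymes, none rose and GSTU18 and GSTU27 fell by 1.01 and 0.96 (adjusted p = 0.0140 and 0.0405, kept in 8 and 5 fits). Of 24 cytochrome P450 genes CYP71B26 rose by 0.81 (adjusted p = 0.0400, kept in 6 fits) and CYP84A4 fell by 1.14 (adjusted p = 0.0493, kept in 3 fits). Over all probe sets 6.65% were called, so these few calls are no result about the family. OASA2, ATMDAR2 and GRXC2 were named after their values were seen.

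**Figure D4:**
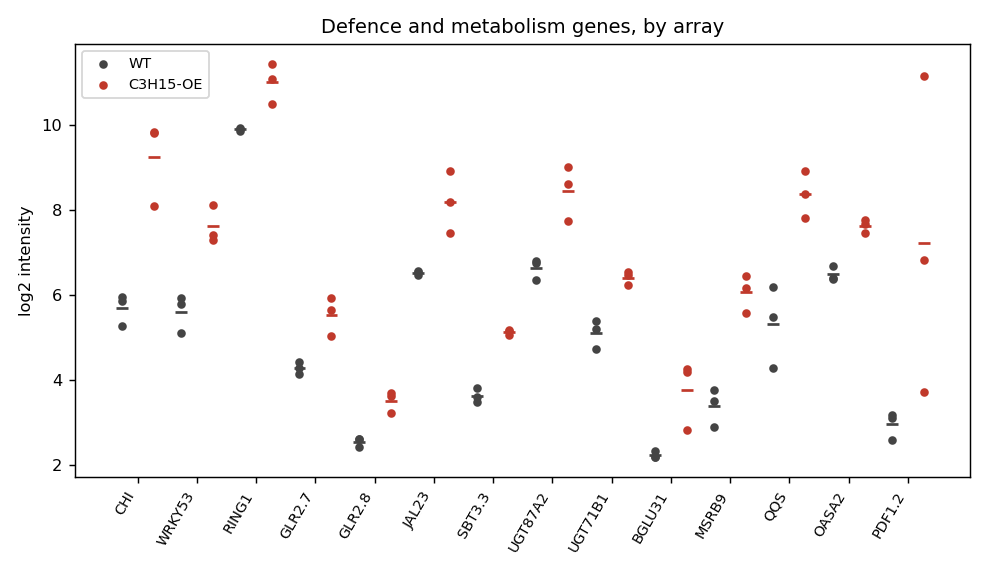
Log2 intensity of 14 genes of defence and metabolism in each of the 3 WT arrays (grey) and the 3 C3H15-OE arrays (red), with the group mean as a bar. The genes were chosen among the rises, except PDF1.2, which missed the threshold, and the red points of PDF1.2 spread from 3.73 to 11.13.

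Carbon partitioning genes moved in both directions. QQS (QUA-QUINE STARCH, AT3G30720), a gene known to set the split of carbon between starch and protein, read 5.49, 6.19 and 4.29 in WT and 7.80, 8.38 and 8.90 in C3H15-OE. Its rise of 3.04 ± 0.53, or 8.21-fold (adjusted p = 0.0115), was held in all 12 fits, with an adjusted p of up to 0.0496. Of 17 SWEET and sugar transport genes 2 fell and none rose, while over all probe sets 3.57% fell and 3.09% rose. SWEET2 (AT3G14770), a vacuolar sugar carrier, read 6.01, 5.90 and 6.16 in WT and 4.00, 4.16 and 4.24 in C3H15-OE. Its fall of 1.89 ± 0.25 (adjusted p = 0.00398) was held in all 12 fits. SWEET16, also of the vacuolar membrane, fell by 1.56 ± 0.27 (adjusted p = 0.0118), and TMT1, a vacuolar sugar importer, by 1.06 ± 0.18 (adjusted p = 0.0111); in these fits both calls were lost only without WT replicate 1 (adjusted p = 0.0545 and 0.0542). All 4 genes of ATP-citrate lyase, which supplies acetyl-CoA in the cytosol, had means below WT (median -0.58). This family and that of TMT1 were added after their values were seen. ACLA-2 fell by 1.23 ± 0.25 (adjusted p = 0.0187) and ACLB-1 by 0.69 ± 0.15 (adjusted p = 0.0254), each kept in 8 fits. Among genes named after their values were seen, AMY1, a secreted alpha-amylase, rose by 1.37 (adjusted p = 0.0382, kept in 4 fits). MCCA, a subunit of the enzyme of leucine breakdown, fell by 1.52 (adjusted p = 0.0202, kept in 9 fits), and AT4G33150, whose synonym LKR/SDH names the enzyme of lysine breakdown, fell by 1.08 (adjusted p = 0.0230, kept in 9 fits).

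Calls were also made for some genes of protein folding and water stress. BZIP60, the transcription factor of the unfolded protein response, rose by 0.84 (adjusted p = 0.0412), the chaperone Hsp70-2 by 1.29 ± 0.26 (adjusted p = 0.0189) and the protein disulfide isomerase-like PDIL5-1 by 0.57 (adjusted p = 0.0189). Fes1B, of a family of Hsp70 exchange factors, fell by 1.73 ± 0.34 (adjusted p = 0.0169). These 4 genes were named after their values were seen and were kept in 6, 9, 8 and 8 fits. Of 6 late embryogenesis abundant genes, whose proteins protect cells that dry out, 2 rose. AT2G46140 (synonym LEA27) read 6.27, 6.0 and 6.24 in WT and 7.34, 7.11 and 7.02 in C3H15-OE, and its rise of 0.99 ± 0.14 (adjusted p = 0.00577) was held in all 12 fits. The dehydrin gene LEA rose by 0.79 from a low level (adjusted p = 0.0250, kept in 8 fits). Of 18 listed cold and abscisic acid genes 5 had a probe set and all 5 had means below WT (median -0.84). COR15B, a chloroplast protein of freezing tolerance, fell by 1.04 ± 0.22 (adjusted p = 0.0230, kept in 8 fits), and its relative COR15A differed by -0.81 (adjusted p = 0.294).

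Regulators of growth and hormone response were scattered across both directions, and except for TET7 and GH3.3 those given here were named after their values were seen. ALC (ALCATRAZ), a helix-loop-helix factor of fruit opening, read 3.33, 3.47 and 3.52 in WT and 4.52, 4.98 and 4.68 in C3H15-OE, and its rise of 1.28 ± 0.18 (adjusted p = 0.00513) was held in all 12 fits. MYR2, a MYB-related factor, rose by 0.94 (adjusted p = 0.0103) and SGP2, a small GTP-binding protein, by 0.95 (adjusted p = 0.00577), both held in all 12 fits. BIM1, a partner of the brassinosteroid factor BES1, rose by 0.85 (adjusted p = 0.0167, kept in 11 fits), SHI, a repressor of gibberellin responses, by 1.03 (adjusted p = 0.0310, kept in 7), and LHW, which acts in vascular cell number, by 0.61 (adjusted p = 0.0312, kept in 8). FBL17, an F-box protein that frees the cell cycle from its inhibitors, read 7.34, 7.32 and 7.50 in WT and 6.74, 6.83 and 6.68 in C3H15-OE. Its fall of 0.64 ± 0.11 (adjusted p = 0.0107) was held in all 12 fits. Of 15 tetraspanins, proteins of the cell membrane, TET7 fell by 1.61 ± 0.25 (adjusted p = 0.00737), held in all 12 fits. Over all probe sets 3.57% fell. In the auxin pathway, WES1 (GH3.5), which conjugates auxin to amino acids, fell by 1.57 (adjusted p = 0.0372) and HAT2, an auxin-induced homeodomain factor, by 0.90 (adjusted p = 0.0466), each kept in 5 fits. GH3.3 read 6.68, 5.97 and 6.92 in WT and 5.17, 4.69 and 3.75 in C3H15-OE and missed the threshold (-1.99, adjusted p = 0.0691). None of 7 Aux/IAA genes passed in limma, and 2 had an unadjusted p under 0.05.

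Photosynthesis genes of the nucleus and genes of the chloroplast genome lay mostly on opposite sides of WT without any call. Of the 6 green tissue markers 5 had a probe set and 4 of these had means below WT (median -0.49), with PRK at 9.84, 10.24 and 10.18 in WT and 9.31, 9.62 and 9.82 in C3H15-OE (-0.51, adjusted p = 0.195). In limma 4 of the 5 had an unadjusted p under 0.05. The light-harvesting gene LHCB4.1 differed by -0.32 and the photosystem gene PSAE-1 by -0.49 (adjusted p = 0.154 and 0.140). The summed linear signal of the 5 markers ran from 8736 to 9561 in WT and from 6202 to 7560 in C3H15-OE. Of 69 chloroplast genome probe sets, 67 had means above WT (median 0.58), and their summed linear signal ran from 46707 to 84655 in WT and from 78011 to 99541 in C3H15-OE. These genes share long transcripts, so they are not independent of each other, and the summed ranges of the groups overlapped. The part of green tissue in other results was not tested.

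Markers of other cell types were low. The 4 tapetum and pollen markers with a probe set stood at mean log2 levels of 1.96 to 3.48 in WT and differed by -0.05 to 0.11. The root marker PYK10 stood at 2.25, the guard cell marker FMA at 3.75 and the trichome gene TRY at 3.59, with differences of -0.10, 0.06 and 0.75, none past the threshold. Their part in the results above was not tested. The phloem, epidermis, shoot meristem and seed marker lists had no 1-gene probe set and were not analysed here. Of 29 serine carboxypeptidase-like probe sets scpl46 rose by 0.65 and SCPL27 and scpl33 fell by 1.06 and 0.47, and of 9 autophagy ATG8 probe sets ATG8H fell by 0.78 (adjusted p = 0.0234). Over all probe sets 6.65% were called. In limma no call was made among 13 ubiquitin-conjugating enzymes, 9 plant U-box genes, 12 low-molecular-weight cysteine-rich genes, 8 YUCCA and GH3 genes matched by symbol or 5 histone genes. In these families 5, 3, 2, 3 and 2 genes had an unadjusted p under 0.05. The 8 YUCCA and GH3 genes leave out WES1 (GH3.5), which was not matched and fell, as given above. The linker histone HIS1-3 differed by 2.29 (adjusted p = 0.135). Nor was any call made among 2 MYB genes, 2 tandem CCCH genes, or the single measured genes of the wax and circadian lists (WSD1 and GI), of which only C3H14 had an unadjusted p under 0.05.

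C3H15-OE and C3H14-OE, as named by their sample titles, were then compared directly. As given above, the level of C3H15 was not analysed. The rise of C3H14 in C3H14-OE missed the threshold, so these arrays do not establish either overexpression. Only 28 probe sets passed, 14 higher and 14 lower in C3H15-OE, which is 0.123% of those tested (0.0615% each way). Without adjustment 2226 had a p under 0.05. MSRB9 read 3.64, 3.21 and 3.81 in C3H14-OE, near its WT readings, and was higher in C3H15-OE by 2.52 ± 0.25 (adjusted p = 0.00980). QQS read 5.23, 4.48 and 4.95 in C3H14-OE and was higher in C3H15-OE by 3.47 ± 0.53 (adjusted p = 0.0364). AT4G00700 was higher by 1.97 ± 0.29 (adjusted p = 0.0364), and GLR2.8 by 0.84 ± 0.12 (adjusted p = 0.0364). TBL38 read 8.99, 8.61 and 8.58 in C3H14-OE and was higher in C3H15-OE by 0.98 ± 0.15 (adjusted p = 0.0364). In the other direction AT1G50040 had a difference of -1.74 ± 0.20 (adjusted p = 0.0168), and TRM28 differed by -1.29 ± 0.17 (adjusted p = 0.0237). The other 1-gene calls were AT1G53980 (1.26), AT2G39710 (1.12) and AT5G62350 (1.08) on the higher side and AT5G05890 (-1.30), AT2G20670 (-1.08), AT1G31040 (-1.03) and AT5G34800 (-0.83) on the lower side. These calls rested on few arrays. With only the 6 arrays compared in the fit no probe set passed in limma (2650 had an unadjusted p under 0.05). Leaving out 1 array gave between 0 and 100 higher and between 0 and 83 lower calls. Counts fell to 0 and 0 without C3H15-OE replicate 2 (1571 at an unadjusted p under 0.05). They fell to 1 and 1 without C3H14-OE replicate 2 and to 2 and 3 without WT replicate 1. Counts grew to 100 and 83 without C3H15-OE replicate 3 and to 29 and 71 without C3H14-OE replicate 3. The small number of calls thus does not show that the groups were alike. MSRB9 kept its call in 18 of 20 alternative fits, with an adjusted p of up to 0.0849, and QQS in 12 of 21, with an adjusted p of up to 0.157.

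The 3 groups were also set side by side, each against the same 3 WT arrays, which they share. The probe sets that rose in C3H15-OE had a median difference from WT of 0.42 in C3H14-OE and 0.06 in the double mutant, and those that fell had medians of -0.44 and -0.10. Of the 702 rises, 45 were also called higher in the double mutant and 4 in C3H14-OE, each against WT. Of the 811 falls, 65 and 5 were also called lower. The total number of calls of the double mutant and of C3H14-OE against WT is not given here. These shared counts therefore do not show which group was more like C3H15-OE. Calls in the opposite direction were not counted, so the genes below do not show which pattern was more common. For xylan genes the medians were -0.91 in C3H15-OE, -0.61 in C3H14-OE and 0.57 in the double mutant, and for tubulins -0.88, -0.48 and 0.11. IRX15 differed from WT by -1.17 in C3H15-OE, by -0.77 in C3H14-OE (adjusted p = 0.239) and by 0.94 in the double mutant (adjusted p = 0.0454). ACT11 differed by -2.13, -0.29 and 0.92 in the same order, XTH16 by -2.12, -0.09 and 1.33, and OASA2 by 1.15, 0.57 and -0.57. In the double mutant these 3 genes missed the threshold (adjusted p = 0.111, 0.0995 and 0.0792). COR15B and ATG8H fell in C3H15-OE and rose in the double mutant, by 1.40 (adjusted p = 0.00839) and 1.25 (adjusted p = 0.00464). AT2G05540 differed by -2.74 in C3H15-OE and by -3.21 in the double mutant (adjusted p = 0.00357), and SIS, a salt-induced gene, by 2.25 (adjusted p = 0.0192) and 2.23 (adjusted p = 0.0196).

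**Figure D5:**
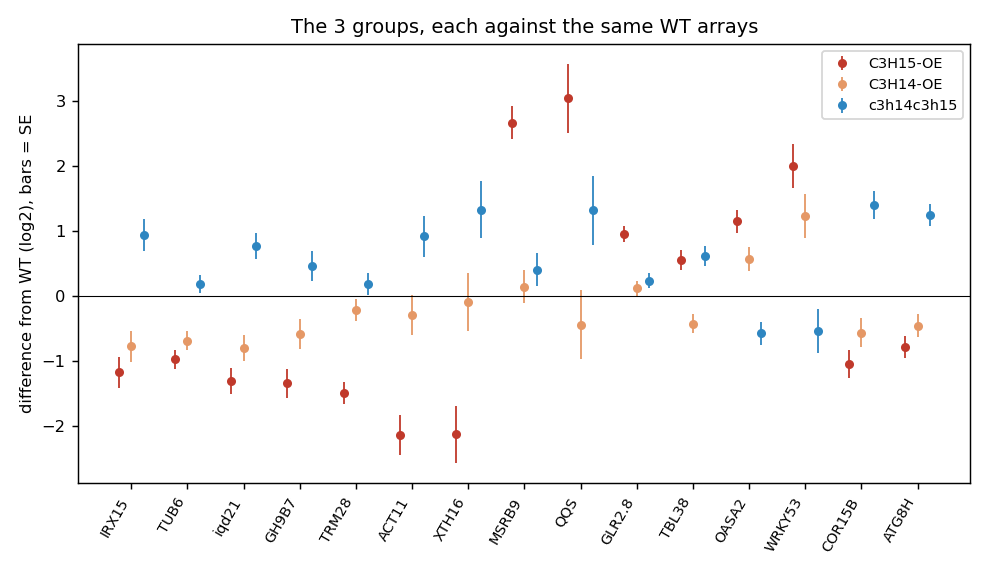
Difference from WT in log2 units (points, with SE bars) for 15 genes in C3H15-OE (red), C3H14-OE (orange) and the double mutant c3h14c3h15 (blue), all against the same 3 WT arrays. MSRB9 and QQS lie at 2.67 and 3.04 in C3H15-OE and at 0.15 and -0.44 in C3H14-OE, and IRX15, ACT11 and XTH16 lie below 0 in C3H15-OE and above 0 in the double mutant.

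Between C3H15-OE and the double mutant 2804 probe sets were higher and 2433 lower, which is 23.0% of those tested (12.3% and 10.7%). The falls against the double mutant included XTH16, which read 7.14, 7.70 and 7.27 in the double mutant, with a difference of -3.44 ± 0.44 (adjusted p = 0.000614). AT5G22580 differed by -4.18 ± 0.71 (adjusted p = 0.00232) and AT1G22690 by -3.17 ± 0.53 (adjusted p = 0.00216). AT5G63180 and P1R1 differed by -3.49 and -3.32 (adjusted p = 0.0301 and 0.0187). On the other side CHI was higher by 3.76 ± 0.93 (adjusted p = 0.0140) and the defensin PDF1.2b by 4.33 (adjusted p = 0.00723). The PDF1.2b probe set has a suffix that marks probes shared with other genes, so signal from related defensins can enter it. PDF1.2 differed by 4.36 in the same comparison and missed the threshold (adjusted p = 0.0941). AT4G16260 read 6.17, 3.85 and 5.58 in the double mutant against 11.64, 9.89 and 8.54 in C3H15-OE, a difference of 4.82 ± 0.93 (adjusted p = 0.00414). AT3G23550 was higher by 3.53 ± 0.44 (adjusted p = 0.000526) and AT4G08780 by 3.16 (adjusted p = 0.0234). For AT4G16260, AT3G23550 and PDF1.2b the difference between C3H15-OE and WT missed the threshold, at 2.44, 0.68 and 2.37 (adjusted p = 0.133, 0.369 and 0.146). Leaving out C3H15-OE replicate 1 gave 1623 higher and 1494 lower calls, and leaving out C3H15-OE replicate 2 gave 1857 and 1499. The calls of XTH16, AT5G22580, AT1G22690, AT4G16260 and AT3G23550 passed in all 21 alternative fits.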

How the data were processed

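Total RNA (200 ng) was labelled by 3′ IVT and hybridised to Affymetrix arrays, 1 per sample, per the labels' protocols. What the authors deposited is RMA-normalized intensity, not log-transformed, per the submitters' processing notes and the values themselves; the RMA version is not given in the sources used here. Of 22810 probe sets 64 controls were left out, and log2 values of the other 22746 entered the test without a brightness filter. limma 3.58.1 under R 4.3.3 fitted a mean per group to all 12 arrays (8 residual and 3.61 prior degrees of freedom). The precision is limited by the 3 arrays of each group. The fit was tested on simulated data with independent normal noise and the same spread in every group. That test cannot show how far single outlying arrays move the calls.

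Genes were named from the platform annotation, with symbols from the RefSeq table of TAIR10.1: 13513 probe sets had 1 gene, 503 several and 8730 none listed, and 13436 of the first matched RefSeq. No coordinates or sequences are given, since no build is named and none was supplied.

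The comparison, the 23 lists by locus (16 with a probe set) and the 62 families by name (47 with a probe set, 1 of them not reported here) were chosen with earlier results of these data known. Families that match a symbol prefix were added once the annotation was seen. The SPIRAL1-like, LIM, kinesin, actin, ATP-citrate lyase, SKU5 and TMT families, and genes said to be so, were added after their values were seen. The text names, by rule, the 15 largest rises and falls without overlap, the 5 smallest p each way, up to 6 called members of each list (or the 3 brightest of a list with none), and the 5 largest each way of the direct comparisons. Same-numbered arrays do not share a stated origin: 4 of 18 pairs had deviations correlated above 0.1, so numbers were not used as pairs. The 21 alternatives were other scalings, a brightness filter, other variance models, a replicate block and fits without 1 or 3 arrays.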

Additional observations from a re-analysis of the deposited data

How the results depend on the processing

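Against WT, counts of rises and falls stayed within 1.5 times of 702 and 811 under quantile normalization again, cyclic loess, omission of the dimmest 40%, only the arrays compared, and an intensity trend with robust variances. With the replicate number as a block, falls numbered 535. Array weights gave 1366 rises and 1596 falls, fits without C3H14-OE replicate 3, WT replicate 2 and c3h14c3h15 replicate 1 gave 1204 and 1688, and 1-gene probe sets without a shared suffix, fewer features by construction, gave 307 and 381. With 1 array left out, rises ran from 121 to 891 and falls from 102 to 1128. Against C3H14-OE (14 higher, 14 lower) the block gave 8 and 7, cyclic loess 24 lower, omission of the dimmest 40% 7 higher, only the arrays compared 0 and 0 in limma (2650 at an unadjusted p under 0.05), weights 345 and 536, and omission of the 3 arrays 63 and 189. With 1 array left out these counts ran from 0 to 100 and from 0 to 83. Against the double mutant, 1-gene probe sets gave 1445 and 1231, and with 1 array left out counts ran from 1623 to 2820 higher and from 1494 to 2554 lower. The cause of these moves was not tested.

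Of 102 calls against WT named by the rule, all kept their direction in every alternative and 32 passed in all. Of 61 named values short of the threshold, 16 passed in some alternative. Among the values short of the threshold, 17 changed sign in some alternative, with sizes of up to 0.15 except for WSD1 (-0.41). Quantile normalization again gave 0.05 for SWEET8 (0.00), 0.00 for AMS (-0.06) and MGH3 (-0.05) and -0.02 for atpE (0.12). Cyclic loess gave 0.06 for SWEET8, 0.01 for AMS, 0.02 for MGH3 and 0.00 for HTB2 (0.00). Weights gave 0.04 for SWEET8 and 0.02 for PDF2.1 (-0.03). Omission of the 3 arrays gave 0.23, 0.06 and 0.18 for SWEET8, MGH3 and PDF2.1. With 1 array left out, values ran from -0.16 to 0.23 for SWEET8, -0.18 to 0.06 for MGH3, -0.10 to 0.08 for HTB2, -0.19 to 0.08 for PSBW (-0.05), -0.10 to 0.20 for YUC2 (0.02), -0.07 to 0.34 for IAA29 (0.15), -0.22 to 0.18 for PDF2.1, -0.01 to 0.23 for atpE, 0.00 to 0.18 for AT5G07230 (0.10), -0.20 to 0.00 for CSLC6 (-0.12), -0.04 to 0.16 for UBC28 (0.08), -0.83 to 0.03 for WSD1 (-0.41), -0.20 to 0.05 for LAC16 (-0.10), -0.10 to 0.25 for FMA (0.06), -0.18 to 0.01 for CML30 (-0.12) and -0.06 to 0.15 for IAA30 (0.05).

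Dim probe sets had few calls, 1.16% rising and 0.475% falling of the dimmest 5687, and 8730 probe sets are unnamed, so families are seen in part.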
